A study of Mus musculus with 20 samples.

Results

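Liver and subcutaneous adipose tissue (SAT) of sham-operated mice were compared gene by gene. Members were all libraries labelled sham, 5 of liver and 5 of SAT, which is 10 of the 20 libraries of the series. The mice were male C57BL/6J mice fed chow until surgery at 8 to 9 months of age. Sham surgery was an incision of the abdomen that left the fat pads in place, and a high-fat diet followed it, for a duration that the labels do not state. Total RNA from flash-frozen tissue was depleted of ribosomal RNA before sequencing. Both groups shared strain, sex, surgery and diet, so the comparison is of 2 tissues under the same conditions and not of the effect of surgery. The other 10 libraries, liver and SAT after surgical removal of epididymal visceral fat (VAT removed), gave the same tissue comparison in libraries that the sham fit did not use. The labels do not state whether equal numbers mark 1 mouse or whether each library of a group is a separate mouse, so p-values measure the spread between these libraries.

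Hepatocytes, the main cells of the liver, make most plasma proteins and bile, store glycogen, release glucose and ketone bodies, and dispose of nitrogen as urea. White adipocytes store triglyceride in a single large droplet, release it as fatty acids and glycerol when insulin is low, and secrete hormones such as leptin and adiponectin. Both cell types make fatty acids from glucose and both respond to insulin, and each often uses its own gene for the same reaction. Fat also holds many stromal, endothelial and immune cells, and a bulk library cannot tell fewer cells of a type from less RNA per cell.

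Each library carried the marker of its labelled tissue. Levels are given in CPM, the usual depth-normalised count of RNA-seq, after scaling for library composition by TMM (trimmed mean of M values). Alb, which encodes serum albumin, was read at 52017, 54543, 63651, 65820.0 and 46342 CPM in liver libraries 1 to 5, and at 9.67, 17.4, 6.93, 3.11 and 16.7 CPM in SAT libraries 1 to 5. Adipoq, which encodes adiponectin, was read at 0.172, 0, 0, 0.0782 and 0 CPM in liver and at 1623, 1988, 844, 819 and 1509 CPM in SAT. The ranges of the tissues were far apart for both genes, and the adipocyte gene was lowest in SAT libraries 3 and 4.

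Total counts were 29040414 to 34277426 per liver library and 27411596 to 42235839 per SAT library. The correlation of log2 CPM across genes was 0.979 to 0.992 between liver libraries, 0.944 to 0.994 between SAT libraries and 0.667 to 0.719 between tissues. SAT libraries 3 and 4 stood apart from the other 3. The summed level of 35 adipocyte genes was 35260.0 and 30930.0 CPM against 54791 to 66254 CPM. That of 22 lymphocyte and lymph node genes was 1794 and 1983 CPM against 694 to 1142 CPM. The lower of these lymphocyte sums were mostly 1 gene, Ighm, given below. Averaged as log2 CPM (0.1 CPM added) over the members tested, the list stood at 5.645 and 5.643 against 0.29 to 0.84. SAT library 2 had 4014 CPM of 20 skeletal muscle genes, against 99.1 to 226 CPM in the other SAT libraries. Liver library 5 had 3198 CPM of 23 interferon response genes against 745 to 1165 CPM in the other livers, and SAT library 5 had 1050.5 CPM against 371 to 489 CPM. Results that rest on these libraries are given below with and without them.

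**Figure D1:**
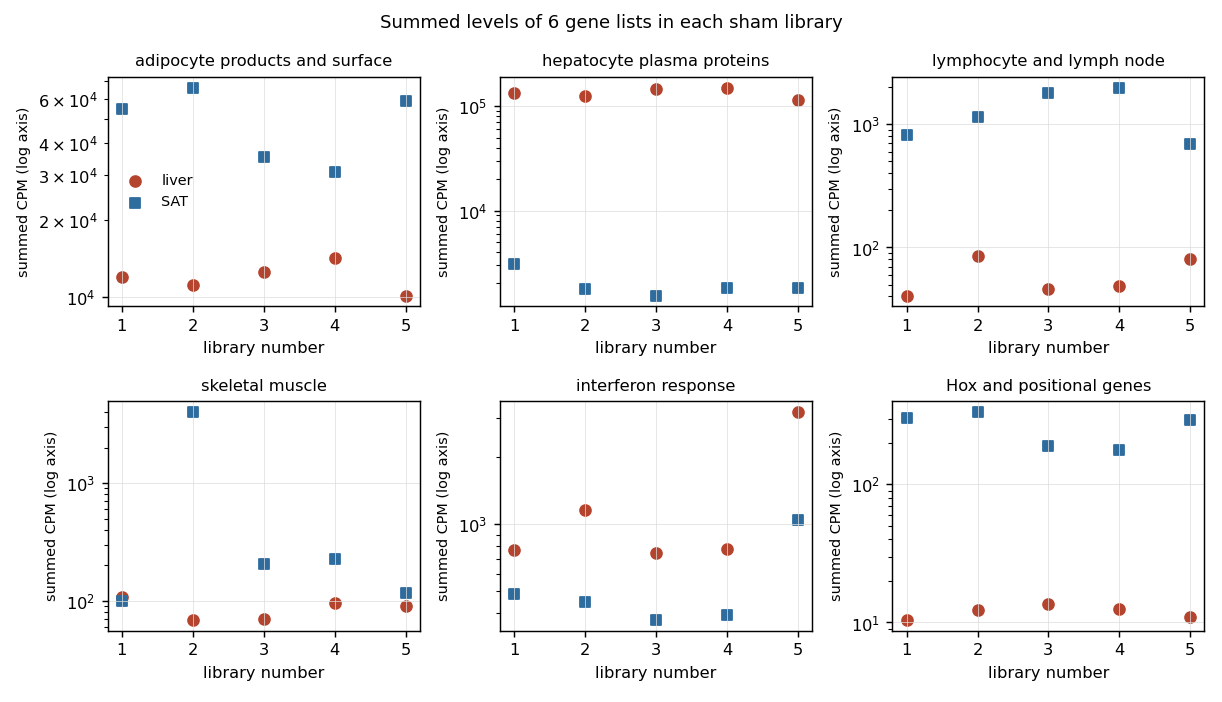
Summed TMM-scaled CPM (log axis) of 6 gene lists in each of the 5 liver libraries (circles) and 5 SAT libraries (squares), plotted against library number. SAT libraries 3 and 4 have the lowest adipocyte sums (35260.0 and 30930.0 CPM) and the highest lymphocyte sums (1794 and 1983 CPM), SAT library 2 has the highest muscle sum (4014 CPM), and library 5 of each tissue has its highest interferon sum.

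Most genes differed between the tissues. Of 18449 genes tested with edgeR's quasi-likelihood test, 5475 (29.7%) were higher in liver and 6516 (35.3%) higher in SAT at an adjusted p of at most 0.05, the rule for a call from here on, and 6458 were not called. Tested against a 2-fold difference in place of none, 2512 genes (13.6%) were higher in liver and 3252 (17.6%) in SAT, and these are called over 2-fold higher below. The median log2 difference, given throughout as liver minus SAT, was -0.11 over all genes. With libraries scaled by total counts alone that median moved by -0.59, and 3189 genes were higher in liver and 10763 in SAT, so liver held 22.9% of the calls in place of 45.7%. With upper quartile scaling the median moved by -0.11 and liver held 40.6% of the calls. The libraries differed in composition. The 20 most abundant protein-coding genes took 16.3% ± 0.861 (SD, n = 5) of liver counts and 9.78% ± 1.68 of SAT counts, with an exact two-sided permutation p of 0.00794 (adjusted over 8 such measures 0.0127), the smallest that 5 against 5 libraries allow. Fewer genes were detected in liver, 13957 ± 257 (SD, n = 5) with at least 1 CPM of total counts against 15488 ± 691 in SAT, with the same exact permutation p of 0.00794.

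The tissue difference recurred in the VAT removed libraries. Of the 5475 genes higher in sham liver, 5015 were also higher in VAT removed liver, which is 91.6% of the sham calls and 78% of the 6428 VAT removed calls (34.7% of 18546 genes tested there), and 1 was called the other way. Of the 6516 genes higher in sham SAT, 5572 were also higher in VAT removed SAT, 85.5% of the sham calls and 85.8% of the 6492 VAT removed calls, where the background was 35%, and 18 were called the other way. Among genes in both fits, 16009 of 18041 had the same sign. A test in edgeR asked whether the tissue difference depended on surgery, over 19954 genes and all 20 libraries. It called 0 genes, with a smallest adjusted p of 0.246. At an unadjusted p under 0.05 there were 2021 genes, a share above 0.05. The 0 calls do not show that the tissue difference was independent of surgery.

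**Figure D2:**
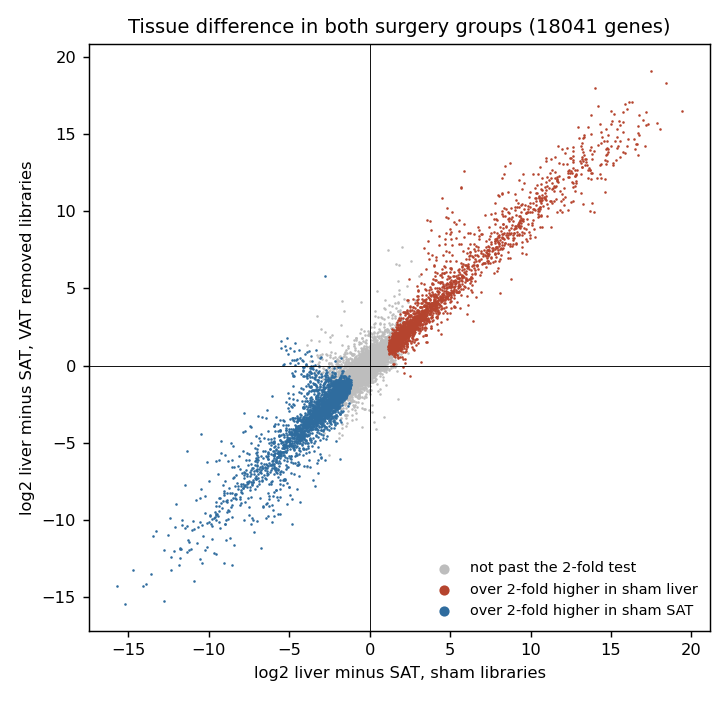
Each point is 1 of 18041 genes, with its log2 difference (liver minus SAT) in sham libraries on the x axis and in VAT removed libraries on the y axis. Genes over 2-fold higher in sham liver (red) lie mostly in the upper right and those over 2-fold higher in sham SAT (blue) mostly in the lower left, and 16009 genes have the same sign on both axes.

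Most of the liver's most abundant mRNAs encoded proteins exported into blood, although Scd1, a desaturase given below, was also among them. All 30 tested plasma protein genes of hepatocytes were higher in liver, 29 of them over 2-fold, with a median log2 difference of 11.05. Together they took 10.9% ± 0.634 (SD, n = 5) of liver counts and 0.242% ± 0.0705 of SAT counts. Apob, which encodes the scaffold of very low density lipoprotein, was read at 18608, 14510.0, 19248, 19004 and 13824 CPM in liver libraries 1 to 5 and at 1.07, 2.2, 1.04, 1.63 and 1.35 CPM in SAT. Apoa1, the main protein of high density lipoprotein, had means of 6581 ± 1156 CPM in liver and 0.101 ± 0.0957 CPM in SAT. Gc, which carries vitamin D in plasma, had 5133 ± 234 against 0.031 ± 0.0292 CPM, and Hpx, which binds free heme, had 4766 ± 472 against 0.804 ± 0.404 CPM. The genes named here were close to absent from fat.

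How little of each plasma protein mRNA was present in SAT varied by gene. The SAT level of Alb was 0.0191% of its liver level, that of Apob 0.00856% and that of Ttr, a carrier of thyroid hormone and retinol-binding protein, 0.000173%, from 2 counts in all SAT libraries together. Hp, which binds free hemoglobin, was an exception, with 46.7% of its liver level in SAT and a log2 difference that passed the test against none but not the 2-fold test, and with total count scaling it was not called (adjusted p = 0.0511). Orm1, an acute-phase glycoprotein, stood at 21.3%, Trf, the iron carrier transferrin, at 7.18% and Rbp4, which carries retinol and is also counted among adipocyte products, at 6.73%. The summed plasma protein level was highest in SAT library 1, at 3084 CPM against 1516 to 1812 CPM in the other SAT libraries.

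Among the genes with the largest ratios of group means on the liver side were secreted proteins and enzymes of methionine, nitrogen and drug metabolism. Ttr had a ratio of 578170.0 with a counting interval of 160060.0 to 4774200.0, since 2 counts in SAT stood against 626219 in liver. The fibrinogen chains Fga, Fgb and Fgg had 2692 ± 509.5, 2406 ± 392 and 1638 ± 339.8 CPM in liver. No count of Fga was found in SAT, which makes it at least 178230-fold higher in liver when 3 counts over the SAT libraries are taken as the floor. Mug1, a protease inhibitor, had 3336 ± 708 CPM and 2 counts in SAT, Hrg, a histidine-rich plasma protein, had 782 ± 128 CPM and 1 count, and Ahsg, which encodes fetuin-A, had 4428 ± 347 against 0.0393 ± 0.0522 CPM. Mup20, a major urinary protein, had 2313 ± 363 against 0.0205 ± 0.012 CPM, and reads of the close copies of its family may be shared between them. For genes with so few SAT counts the fitted difference moved with single libraries: without SAT library 2, which held both Ttr counts, its log2 difference went from 18.43 to 20.25.

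Clotting and complement genes were mostly higher in liver, and some were higher in SAT. Of 28 coagulation and fibrinolysis genes, 19 were higher in liver and 8 in SAT, beside 29.7% and 35.3% of all genes. The liver side held the circulating factors, among them F2, which encodes prothrombin, at 1849 ± 125 against 0.138 ± 0.161 CPM, and Serpinc1, its inhibitor antithrombin, at 1708 ± 136 against 0.745 ± 0.224 CPM. The SAT side held genes of endothelium, stroma and macrophages: F13a1, a subunit of factor XIII, at 156 ± 69.7 against 1.3 ± 0.831 CPM (log2 difference -6.90 ± 0.55 SE, adjusted p = 8.13e-07), and Vwf, Thbd and Plau with log2 differences of -1.76 ± 0.16, -3.03 ± 0.35 and -3.28 ± 0.33. Tfpi, an inhibitor of the first step of clotting, had 7.85 ± 1.13 and 8.77 ± 1.64 CPM and was not called (log2 difference -0.16, 95% interval -0.51 to 0.19, adjusted p = 0.404), although it was called higher in SAT with total count scaling (-0.75).

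Of 29 complement genes, 20 were higher in liver, 6 in SAT and 3 were not called, beside 29.7% and 35.3% of all genes higher in liver and SAT. C3, the central component, had 8476 ± 744 CPM in liver and 1066 ± 211 in SAT (log2 difference 2.99 ± 0.19, adjusted p = 1.18e-07), so fat held a sizeable level of it too. Hc, which encodes component C5, had 1127 ± 72.1 against 1.59 ± 0.378 CPM. Cfd, the adipocyte protease adipsin that starts the alternative pathway, went the other way with 16.7 ± 13.7 against 1201 ± 540.5 CPM (log2 difference -6.17 ± 0.89, adjusted p = 9.18e-05). C1qc, a subunit of C1q made by macrophages, had 75 ± 35 and 123 ± 42.9 CPM and was not called (adjusted p = 0.093), but it was called higher in SAT without liver library 5 (adjusted p = 0.0325), without SAT library 3 (0.0397), without SAT libraries 3 and 4 (0.0305), in the fit of all 20 libraries (0.0439) and with total count scaling (0.00864).

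Further secreted proteins and an enzyme of glucose release were over 2-fold higher in liver. C4bp, an inhibitor of complement, had 544 ± 27.1 CPM in liver against 0.0387 ± 0.0419 in SAT, and Pzp, a protease inhibitor of the alpha-2-macroglobulin family, had 6274 ± 749 against 0.14 ± 0.119. F13b, the carrier subunit of factor XIII, had 166 ± 15.6 CPM in liver and 2 counts in SAT, whereas F13a1, its catalytic partner, was higher in SAT as given above. Igfbp1, which binds insulin-like growth factors, had 102 ± 53.2 CPM in liver and 2 counts in SAT, and G6pc, the enzyme that frees glucose for export, had 380.4 ± 159 against 0.0545 ± 0.0656 CPM.

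RefSeq promoters (GRCm38.p6) ran from 250 bases before to 50 bases after the gene's start. They were used for 12317 of the 18449 genes, of which 1743 were over 2-fold higher in liver and 2253 in SAT. Both strands were searched for common promoter motifs, and a gene with several promoters was counted if any of them matched. The letters TTGCNNAA, bound by C/EBP factors, were found for 10.684% of all these genes. The share was 14.286% of those over 2-fold higher in liver and 11.496% of those over 2-fold higher in SAT. A TATA box (TATAAA) was in 9.743%, 14.343% and 11.895% of the same groups, and a GC box (GGGGCGGGG) in 22.432%, 19.679% and 23.169%. The CCAAT box was in 41.983%, 44.464% and 38.704%. Matches may overlap, the motifs were chosen with the values known, and a match is a description of the letters, not of binding.

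The promoter of Alb is shown because albumin was the most abundant liver mRNA. These are the 250 bases before the start (GRCm38.p6 chr5:90460620-90460869, + strand), 5′ to 3′, with the 2 CCAAT boxes in capitals, of which 1 lies on the other strand and reads ATTGG.
Alb: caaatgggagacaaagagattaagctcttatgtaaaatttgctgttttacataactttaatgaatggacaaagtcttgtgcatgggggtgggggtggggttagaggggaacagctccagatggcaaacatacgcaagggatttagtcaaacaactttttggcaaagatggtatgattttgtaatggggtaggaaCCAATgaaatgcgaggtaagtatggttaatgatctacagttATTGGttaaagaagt

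Adipocyte hormones and a droplet protein were among the genes with the largest ratios on the SAT side. Lep, which encodes the satiety hormone leptin, was read at 0.086, 0, 0, 0.0391 and 0.0695 CPM in liver libraries 1 to 5 and at 2588, 2689.9, 2003, 1457 and 2625 CPM in SAT, a ratio of 58409 between the group means. Adipoq followed with 27121 and Plin1, which coats the adipocyte droplet and gates lipolysis, with 17210.0. The lowest SAT values of Lep and Plin1 were in libraries 3 and 4, the libraries with low adipocyte sums. Tshr, the thyrotropin receptor, had 135 ± 34.2 CPM in SAT and 2 counts in liver, a ratio of 9716 with a counting interval of 2689.7 to 80230.0, and Lgals12, a galectin of lipid droplets, had 137 ± 40.7 CPM and 2 counts in liver.

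Retnla, a secreted protein of alternatively activated macrophages and fat, had 145 ± 67.3 CPM in SAT and no count in liver, which makes it at least 6260-fold higher in SAT with 3 counts over the liver libraries as the floor. Retn, the adipocyte hormone resistin, had 299 ± 99.4 against 0.052 ± 0.0319 CPM and Slc7a10, an amino acid transporter of adipocytes, 214 ± 87 against 0.0621 ± 0.0859. Glb1l2, Apol6 and Cdsn, named by the size of their ratio alone, had 257 ± 85.7, 306 ± 104 and 121 ± 45 CPM in SAT and under 0.1 CPM in liver. Timp4, an inhibitor of metalloproteinases, had 98.6 ± 56.4 CPM in SAT and 3 counts in liver, a ratio of 3941 with a counting interval of 1349 to 19112.

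The promoters of Lep and Adipoq are shown because these genes had the largest SAT to liver ratios. Each line is the 250 bases before the start in GRCm38.p6, 5′ to 3′, for Lep chr6:29059971-29060220 on the + strand and for Adipoq chr16:23146286-23146535 on the + strand. Capitals mark the C/EBP letters in Lep, where TTGCGCAA reads the same on both strands and begins 55 bases before the start, and the 3 CCAAT boxes in Adipoq, of which 2 lie on the other strand and read ATTGG.
Lep: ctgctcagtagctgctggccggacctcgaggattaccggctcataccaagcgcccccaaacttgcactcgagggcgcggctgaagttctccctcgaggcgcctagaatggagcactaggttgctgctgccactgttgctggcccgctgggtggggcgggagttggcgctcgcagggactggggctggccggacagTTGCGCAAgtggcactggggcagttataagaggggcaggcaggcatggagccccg
Adipoq: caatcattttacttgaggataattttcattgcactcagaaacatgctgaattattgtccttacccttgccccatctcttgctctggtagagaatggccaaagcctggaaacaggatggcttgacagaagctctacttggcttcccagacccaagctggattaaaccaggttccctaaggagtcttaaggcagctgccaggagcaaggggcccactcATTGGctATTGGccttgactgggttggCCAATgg

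Of 35 tested genes for adipocyte products and surface proteins, 32 were higher in SAT and 3 in liver, with a median log2 difference of -5.69 against -0.11 for all genes. Fabp4, the fatty acid binding protein of adipocytes, was read at 11.2, 12.3, 12.2, 17.8 and 18.1 CPM in liver and at 5043, 6480.5, 3143, 2954 and 6064 CPM in SAT. Npr3, the clearance receptor for natriuretic peptides, had 4.51 ± 0.871 against 1656 ± 396 CPM and Acvr1c, an activin receptor of adipocytes, 0.259 ± 0.192 against 169 ± 49. The 3 members higher in liver were Pck1, Rbp4 and Rarres2, and for Rarres2, which encodes the chemoattractant chemerin, the difference was small (194 ± 13.3 against 111 ± 42 CPM, adjusted p = 0.0118) and was not called with total count scaling (0.269). Among 30 tested hormones and cytokines of fat, 20 were higher in SAT, 4 in liver and 6 were not called.

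Some of the genes best known from fat were also abundant in these livers. Car3, a carbonic anhydrase that is among the most abundant proteins of adipocytes, was read at 3606, 2106, 4171, 3674 and 1626 CPM in liver and at 6327, 10459, 4343, 3344 and 7999.9 CPM in SAT. The groups overlapped, and the log2 difference of -1.10 ± 0.36 (adjusted p = 0.019) was not called without SAT library 2 (0.0639) or SAT library 5 (0.0539). Pck1, which supplies glycerol backbones in fat and glucose in liver, was read at 2344, 3285, 2548, 4025 and 3943 CPM in liver and at 743, 1047, 415, 346 and 920.1 CPM in SAT, with every liver library above every SAT library (log2 difference 2.22 ± 0.33, adjusted p = 0.000118).

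**Figure D3:**
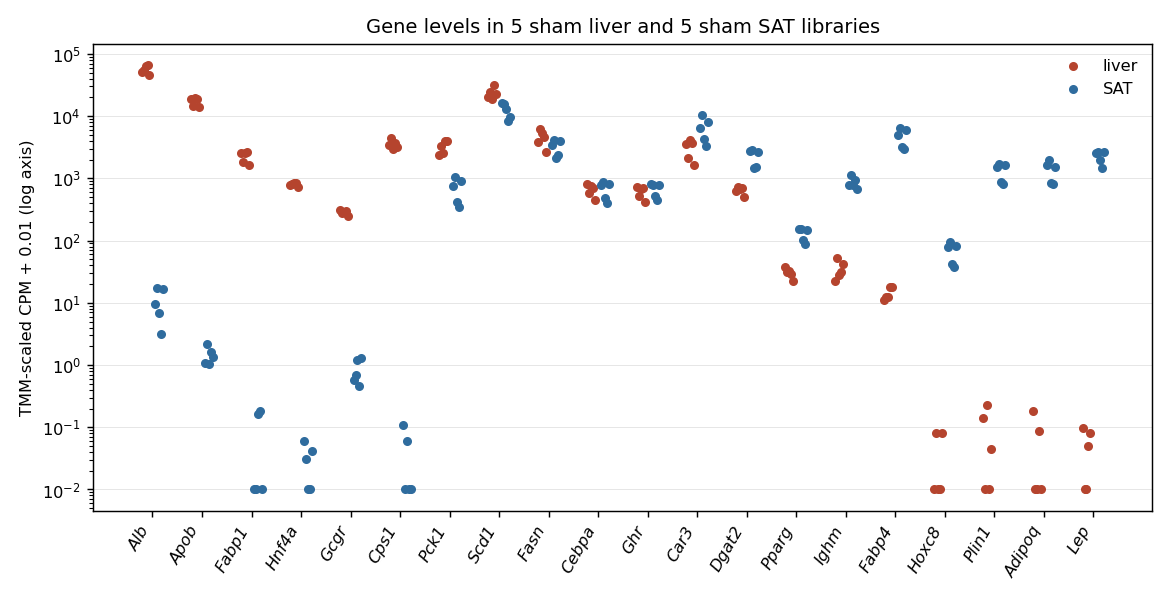
TMM-scaled CPM plus 0.01 (log axis) of 20 genes in each of the 5 liver libraries (red) and 5 SAT libraries (blue), 1 point per library. Alb to Cps1 at the left are high in liver only, Plin1, Adipoq and Lep at the right are high in SAT only, and the points of Fasn, Cebpa, Ghr and Car3 overlap.

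The transcription factors that define each cell type divided the tissues. Of 20 hepatocyte factors, 19 were higher in liver and 1 was not called. Hnf4a, a nuclear receptor at the head of the hepatocyte programme, was read at 783, 806, 832, 839 and 719.7 CPM in liver and at 0.05, 0.0211, 0, 0 and 0.0314 CPM in SAT. Onecut2 had 246 ± 41.2 against 0.377 ± 0.0524 CPM, Creb3l3, a factor anchored in the endoplasmic reticulum that drives fasting genes, 303 ± 25.7 against 0.78 ± 0.311, and Nr1h4, the bile acid receptor FXR, 138 ± 25.5 against 2.39 ± 1.71. Prox1, which hepatocytes share with lymphatic endothelium, had 242 ± 50.9 against 5.82 ± 7.64 CPM, and its log2 difference of 5.37 became 8.28 without SAT libraries 3 and 4 (6.51 without SAT library 4 alone).

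Of 22 adipocyte factors, 14 were higher in SAT, 5 in liver and 3 were not called. Ebf1, a factor of adipocyte commitment, was read at 1.33, 1.87, 1.08, 1.09 and 1.22 CPM in liver and at 219, 211, 190.2, 181 and 232 CPM in SAT. Zfp423, a preadipocyte factor, had 6.31 ± 1.48 against 134 ± 35 CPM. Pparg, the master regulator of fat cell differentiation, was lower in liver at 37.4, 31, 32.1, 29 and 22.7 CPM than in SAT at 154, 153, 101, 86.6 and 147 CPM, but it was not absent there (log2 difference -2.08 ± 0.19, adjusted p = 3.1e-06). Klf15, which acts in both fasting liver and fat, was higher in liver at 257 ± 48.1 against 46.7 ± 20.0 CPM.

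The factor shared by both cell types was not called. Cebpa, which is needed for hepatocytes and for white adipocytes alike, was read at 803, 584, 755, 696 and 445 CPM in liver and at 784, 876, 486, 405 and 815 CPM in SAT. Its log2 difference was -0.04 with a 95% interval of -0.57 to 0.50 (adjusted p = 0.903), and it was called higher in SAT only with total count scaling (-0.61, adjusted p = 0.0147) among the alternatives run. Tcf7l2, an effector of Wnt signalling, had 56.5 ± 6.55 and 56.7 ± 11.5 CPM, an interval of -0.32 to 0.31, and -0.57 with total count scaling.

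Position along the body axis was a further divide. Hox genes, which keep a record of the body region a cell came from, were tested for 26 of 39 members, and all 26 were higher in SAT (22 over 2-fold, median -4.57). The other 13 did not pass the filter on low counts. Hoxc8 was read at 0, 0.0694, 0, 0 and 0.0695 CPM in liver and at 78.1, 96.3, 41.8, 38.3 and 80.5 CPM in SAT. Hoxc9 had no count in liver and 16.5 ± 6.33 CPM in SAT, at least 713-fold higher, and Hoxc10 had 1 count in liver and 16.2 ± 5.62 CPM in SAT, a ratio of 1874 with a counting interval of 336 to 74001. Of 22 tested imprinted genes, 18 were higher in SAT, 0 in liver and 4 were not called, with Mest, a gene tied to fat cell size, at 8.14 ± 1.69 against 632 ± 88.2 CPM and Nnat at 8.27 ± 0.608 against 418 ± 149 CPM.

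Fatty acid synthesis genes were mostly higher in liver, but the pathway's most abundant genes were high in both tissues. Of 21 genes, 14 were higher in liver, 4 in SAT and 3 were not called. Scd1, which makes monounsaturated fatty acids, was read at 19933, 24190.0, 18794, 31729 and 22614 CPM in liver and at 16033, 15684, 13091, 8211 and 9628 CPM in SAT. It was the third most abundant gene of liver and the first of SAT, mitochondrially encoded and non-coding genes aside. Every liver library was above every SAT library (log2 difference 0.90 ± 0.25, adjusted p = 0.00832), but the difference was not called with total count scaling (adjusted p = 0.188), nor in the VAT removed libraries, where it was 0.65. Fasn, fatty acid synthase, was read at 3859, 6142, 5259.9, 4629 and 2629 CPM in liver and at 3452, 4207, 2126, 2361 and 4003 CPM in SAT, and was not called (log2 difference 0.48, 95% interval -0.12 to 1.08, adjusted p = 0.144). Me1, which supplies NADPH, and Slc25a1, which exports citrate from mitochondria, were not called either (-0.13 and 0.11), and with total count scaling both were called higher in SAT (-0.71 and -0.46).

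Fads2 and Fads1, the desaturases of polyunsaturated fatty acids, had 1337 ± 239 against 11.2 ± 0.829 CPM and 1057 ± 204 against 32.4 ± 5.73 CPM (log2 differences 6.90 ± 0.18 and 5.03 ± 0.20), and Elovl5, their elongase, 1347 ± 321 against 60.7 ± 2.18 CPM. Srebf1, which drives the pathway under insulin, was 2.87-fold higher in liver. G6pdx and Pgd, the NADPH-making enzymes of the pentose phosphate pathway, were higher in SAT, at 13.8 ± 2.27 against 140.4 ± 33.6 CPM and 109.9 ± 14.6 against 286 ± 68.1 CPM. Scd2, the desaturase of most other tissues, was also higher in SAT at 111 ± 29.6 against 433 ± 73.5 CPM.

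Triglyceride synthesis genes were split between the tissues. Of 21 genes, 9 were higher in liver and 10 in SAT, beside 29.7% and 35.3% of all genes. Gpam, the mitochondrial acyltransferase of the first step, had 867 ± 313 against 97.1 ± 21.6 CPM, Lpin2, a phosphatidate phosphatase, 859.8 ± 262 against 28.1 ± 2.57 CPM, and Mttp, which loads triglyceride onto apolipoprotein B, 463 ± 48 against 2.8 ± 0.55 CPM. Dgat2, which makes triglyceride from diacylglycerol, was lower in liver, at 633, 726, 679, 711 and 499 CPM against 2739, 2811, 1458, 1521 and 2652 CPM in SAT (log2 difference -1.78 ± 0.23, adjusted p = 3.92e-05). Agpat2, whose loss causes lipodystrophy, was only 1.43-fold higher in SAT, a call lost in 7 of the 10 fits without 1 library. Lpin1 was not called, with 532 ± 287 and 389 ± 126 CPM and an interval of -0.43 to 1.33 that does not exclude a 2-fold difference.

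Proteins of the lipid droplet also differed by gene and not as a group. Of 15 genes, 7 were higher in liver and 6 in SAT, beside 29.7% and 35.3% of all genes. The median log2 difference of 0.51 became -0.06 with total count scaling. Plin4, a perilipin of adipocytes, had 177 ± 46.4 against 4141 ± 1149.6 CPM, and Cidec, which fuses droplets, 102 ± 16.4 against 2096 ± 751 CPM. Plin2, the perilipin of most cells, was higher in liver at 868 ± 154 against 408 ± 114 CPM (adjusted p = 0.00106), as were Plin5 at 81.4 ± 12.3 against 14.9 ± 7.98 CPM and Hsd17b13, a droplet enzyme of hepatocytes, at 551 ± 67.2 against 0.0742 ± 0.0586 CPM. Cideb, which serves lipoprotein loading, had 46.9 ± 3.73 against 0.0269 ± 0.0388 CPM. Cidea was at 20.1 ± 18.7 and 12.3 ± 8.83 CPM and was not called.

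Lipolysis genes were mostly higher in fat. Of 28 genes of lipolysis and its receptors, 22 were higher in SAT, 5 in liver and 1 was not called. Pnpla2, which takes the first fatty acid off triglyceride, had 107 ± 14.1 against 1290.3 ± 542 CPM and Lipe, hormone-sensitive lipase, was read at 27.7, 18.2, 23.3, 23.6 and 21.6 CPM in liver and at 1106, 1359, 700.0, 605 and 1198 CPM in SAT. Mgll, which takes the last fatty acid, and Abhd5, the activator of Pnpla2, were 3.09-fold and 2.89-fold higher in SAT. G0s2, the inhibitor of Pnpla2, had 128 ± 56.3 and 201 ± 96.2 CPM and was not called (adjusted p = 0.135), but it was called higher in SAT without liver library 1 (0.0309), the liver with the highest level, at 226 CPM. Lipc, hepatic lipase, was on the liver side with 106 ± 18 against 0.221 ± 0.218 CPM.

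Genes for entry of fatty acids into the cell were more often higher in liver, but the direction differed by member. Lpl, the lipase that frees fatty acids from circulating lipoproteins, had 44.4 ± 23.8 against 5518 ± 1341 CPM, and Cd36, a fatty acid translocase, 232 ± 18.8 against 2348 ± 652 CPM. Slc27a2 and Slc27a5, transport proteins that also activate fatty acids and bile acids, had 1122 ± 158 and 749 ± 132 CPM in liver and 0.124 ± 0.14 and 0.0743 ± 0.102 in SAT, while Slc27a1, the transport protein that insulin brings to the surface, had 10.6 ± 1.7 against 376 ± 145 CPM. Of 23 uptake and binding genes, 15 were higher in liver and 7 in SAT, beside 29.7% and 35.3% of all genes. Acsl1, which activates long-chain fatty acids, was 1.86-fold higher in SAT (adjusted p = 0.00825).

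Of 32 fatty acid oxidation genes, 27 were higher in liver, 1 in SAT and 4 were not called (median 1.69). Cpt1a, the gate of the mitochondrial route, had 819.5 ± 69.9 against 147 ± 29.3 CPM and Acaa2, its last enzyme, 643 ± 77.8 against 76.6 ± 24.8 CPM. The 1 gene higher in SAT was Crat, carnitine acetyltransferase, with 121 ± 8.35 against 168 ± 50.5 CPM and an adjusted p of 0.049 that was lost in 8 of the 10 fits without 1 library. Acadl, a long-chain dehydrogenase, had 219 ± 30.4 and 211 ± 66.7 CPM and was not called (interval -0.40 to 0.51), and with total count scaling it was called higher in SAT (-0.51, adjusted p = 0.0123).

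Genes of ketone body synthesis were mostly higher in liver and the gene needed to use them was higher in SAT. Bdh1, which makes beta-hydroxybutyrate, had 319.6 ± 60.6 against 1.22 ± 1.38 CPM. Oxct1, which is needed to burn ketone bodies and which hepatocytes lack, was read at 5.29, 10.6, 6.45, 4.57 and 9.31 CPM in liver and at 233, 304, 160.0, 158 and 260.3 CPM in SAT. Of 9 genes, 7 were higher in liver, Oxct1 alone was higher in SAT, and Slc16a6, of the monocarboxylate transporter family, was not called (15.1 ± 1.21 and 13.1 ± 6.39 CPM). Without SAT libraries 3 and 4, Slc16a6 was called higher in liver (log2 difference 0.81, adjusted p = 0.000457).

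Cholesterol and bile acid genes were on the liver side. Of 23 cholesterol synthesis genes, 20 were higher in liver, 0 in SAT and 3 were not called, with a median log2 difference of 2.59. Of 24 bile acid genes, 23 were higher in liver, all over 2-fold, and 1 was not called. Abcc2, an export pump of the bile canaliculus, had 1308 ± 171 against 0.793 ± 0.166 CPM, and Slco1b2, an uptake carrier, and Abcb11, the bile salt export pump, had 898 ± 234 and 571 ± 104 CPM in liver and 2 counts each in SAT.

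**Figure D4:**
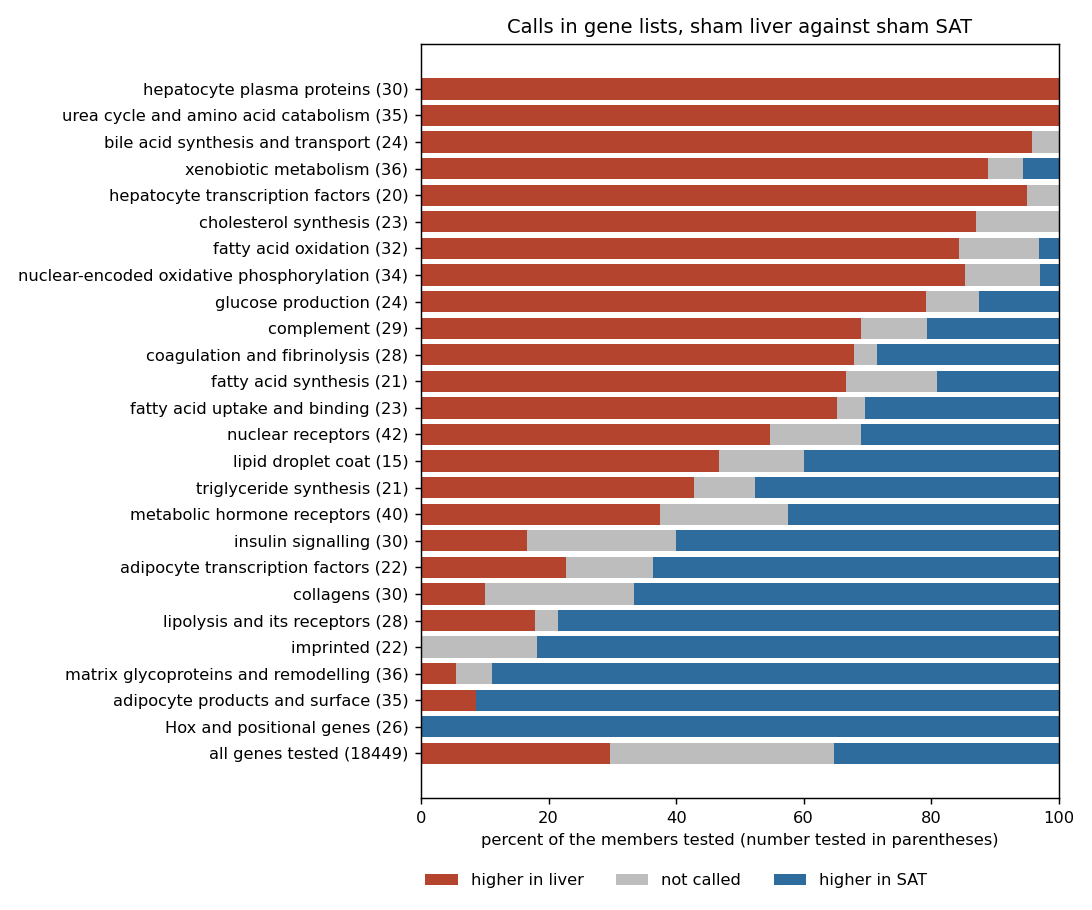
Percent of the tested members of 25 gene lists, and of all genes tested, that were higher in liver (red), not called (grey) or higher in SAT (blue), with the number tested in parentheses. Of the plasma proteins 30 of 30, of the urea cycle and amino acid catabolism genes 35 of 35 and of the bile acid genes 23 of 24 are red, of the Hox genes 26 of 26, of the matrix glycoproteins 32 of 36 and of the adipocyte products 32 of 35 are blue, and the triglyceride synthesis and lipid droplet lists are split, beside 29.7% and 35.3% of all genes.

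Genes of sugar handling were led by a different isozyme in each tissue at many steps. Members of an isozyme set were compared with each other per kb of exon. Their shares of a set's summed CPM per kb are given from here on as mean ± SD over 5 libraries. Exon length was that of all annotated exons of a gene merged, which can exceed the length of the mRNA present. For Fabp4 it was 4489 bases, the whole gene. Shares and leading genes depend on these lengths. Among 7 glucose transporters, Slc2a2, a low-affinity carrier of hepatocytes, made up 73.5% ± 2.58 of the set in liver and 0.0403% ± 0.0316 in SAT, and Slc2a4, the insulin-responsive carrier, 0.600% ± 0.397 and 68.8% ± 10.7. In CPM, Slc2a2 was read at 459, 464, 476, 481 and 309.9 in liver and at no more than 0.19 in SAT. Slc2a4 was read at 2.32, 4.75, 1.39, 1.64 and 0.869 CPM in liver and at 109.9, 182, 68.1, 60.8 and 149.6 CPM in SAT. Slc2a1, the carrier of most cells, was not called (19.5 ± 5.96 and 13.9 ± 3.82 CPM, adjusted p = 0.0936), and was called higher in liver without SAT library 3 (0.0412) or 4 (0.0474).

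In some later steps, too, another gene led in each tissue. Hk2, a hexokinase of insulin-sensitive tissues, held 2.44% ± 1.01 of its set in liver and 72.5% ± 7.4 in SAT. Aldoa held 99.9% ± 0.0607 of the aldolases in SAT. Pklr held 92.9% ± 5.23 of the pyruvate kinases in liver and Pkm 99.97% ± 0.0338 in SAT. Pfkfb1 and Pfkfb3, which set the level of the glycolytic activator fructose 2,6-bisphosphate, led their set with 64.7% ± 4.36 in liver and 87.1% ± 1.56 in SAT. Other steps had the same leading gene in both tissues: Pfkl held 59.7% ± 4.73 of phosphofructokinase 1 in liver and 55.4% ± 6.64 in SAT, and Ldha 99.4% ± 0.119 and 87.8% ± 1.42 of the lactate dehydrogenases.

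Glycogen and glycerol genes showed the same pattern. Gys2 held 98.2% ± 0.357 of the glycogen synthases in liver and Gys1 66.7% ± 6.27 in SAT, and Pygl held 95.5% ± 1.84 of the phosphorylases in liver and Pygb 70.2% ± 9.81 in SAT. Gys2 was nevertheless read in fat, at 29.2 ± 15.1 CPM. Aqp9, which lets glycerol into hepatocytes, held 99.7% ± 0.105 of the aquaglyceroporins in liver, and Aqp7, which lets it out of adipocytes, held 97.5% ± 2.69 in SAT. Fbp1, a gluconeogenic enzyme, had 1054 ± 133 against 0.106 ± 0.0262 CPM, while Pcx, pyruvate carboxylase, which feeds gluconeogenesis in liver and fatty acid synthesis in fat, had 1252 ± 188 and 933 ± 318 CPM and was not called (adjusted p = 0.142). Of 24 glucose production genes, 19 were higher in liver and 3 in SAT, beside 29.7% and 35.3% of all genes.

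Over all 44 isozyme sets, 24 were led by another gene in each tissue and 20 by the same gene. The leader was the gene with the largest mean share, with no margin required. Lipid sets that changed leader were the fatty acid binding proteins (Fabp1, 97.8% ± 0.308 in liver, and Fabp4, 97.3% ± 0.233 in SAT), the perilipins (Plin2, 72.9% ± 3.91, and Plin4, 63.3% ± 1.74) and the PPAR nuclear receptors, sensors of fatty acids (Ppara, 86.5% ± 2.44, and Pparg, 84.8% ± 2.44). Ppara, the receptor that drives oxidation, was read at 324, 260.1, 355, 402 and 246 CPM in liver and at 7.02, 8.39, 4.73, 4.29 and 10.3 CPM in SAT. Sets with an unchanged leader included Scd1 among the desaturases (98.9% ± 0.116 and 96.2% ± 0.726), Dgat2 among the diacylglycerol acyltransferases (95.9% ± 0.539 and 94.3% ± 0.54), Cpt1a (99.5% ± 0.167 and 93.7% ± 0.988), Pck1 (99.9% ± 0.0258 and 98.3% ± 0.976) and Car3 (93.6% ± 1.19 and 98.2% ± 0.376). Some changes of leader were small. Irs1 held 62.5% ± 5.09 of the insulin receptor substrates in liver and Irs2 64.9% ± 8.63 in SAT. Akt1 held 47.8% ± 1.89 of the AKT kinases in liver and Akt2 56.1% ± 9.01 in SAT. Acacb held 63.2% ± 4.98 of the acetyl-CoA carboxylases in liver and Acaca 57.8% ± 8.63 in SAT. The arginases summed to only 0.651 CPM per kb in SAT, with Arg2 at 53.95% ± 13.06 and Arg1 at 46.05% ± 13.06.

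**Figure D5:**
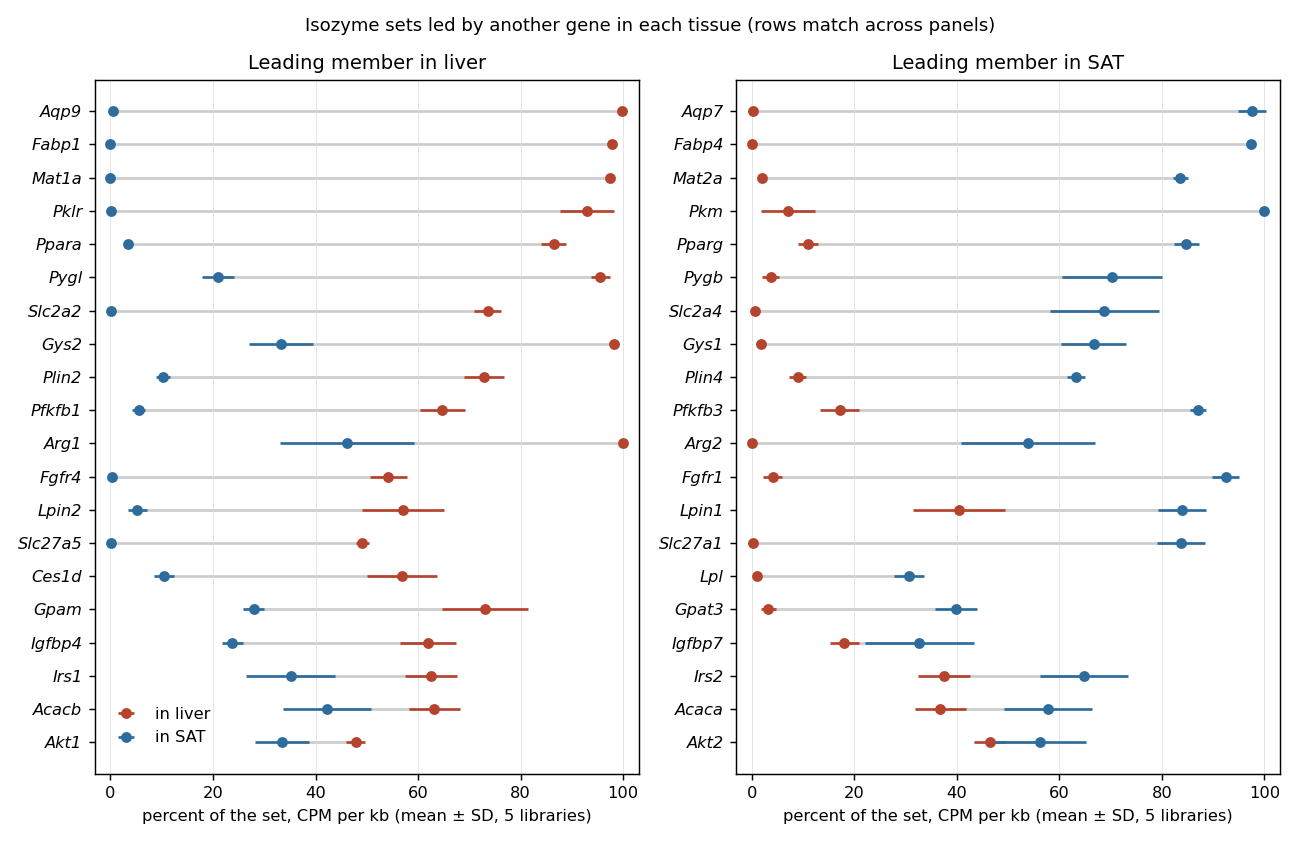
For 20 of the 24 isozyme sets led by another gene in each tissue, the share of the set's summed CPM per kb (percent, mean ± SD of 5 libraries) held in liver (red) and in SAT (blue) by the liver's leading gene (left panel) and by the SAT's leading gene (right panel). Rows are the same set in both panels: at the top the leaders' shares lie far apart between the tissues, as with Pklr (92.9% in liver) and Pkm (99.97% in SAT), and at the bottom the shares lie close together.

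Genes that dispose of amino acids were higher in liver without exception among those tested. All 35 genes of the urea cycle and amino acid catabolism were higher in liver, 34 over 2-fold, with a median log2 difference of 9.05. Cps1, which makes carbamoyl phosphate from ammonia, was read at 3399, 4516, 2949.7, 3659 and 3132 CPM in liver and at 0.1, 0, 0.0506, 0 and 0 CPM in SAT. Ass1, the third enzyme of the urea cycle, had 2443 ± 458 against 15.2 ± 10.7 CPM. Tat, which degrades tyrosine, had 1968 ± 363 against 0.0201 ± 0.0275 CPM, Bhmt, which remethylates homocysteine, 2044 ± 363 CPM and 2 counts in SAT, and Mat1a, which makes S-adenosylmethionine, 3189.6 ± 519 against 0.02 ± 0.0447 CPM.

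Other isozymes of the same reactions led in fat. Mat2a held 83.6% ± 1.43 of the methionine adenosyltransferases in SAT and 2.02% ± 0.514 in liver. Branched-chain amino acid genes were divided, with 11 of 22 higher in liver, 4 in SAT and 7 not called, beside 29.7% and 35.3% of all genes. Their median log2 difference of 0.46 became -0.10 with total count scaling. Their first step was higher in SAT: Bcat2 had 29 ± 4.04 against 71.7 ± 21.1 CPM, and Bcat1, its cytosolic form, was read at 0, 0.139, 0.0433, 0 and 0.139 CPM in liver and at 40.2, 46.1, 24.8, 27.1 and 58 CPM in SAT. Bckdha, of the next and committed step, was 2.79-fold higher in liver. Asns, asparagine synthetase, had 1.47 ± 1.12 against 30.4 ± 12.5 CPM (log2 difference -4.35 ± 0.62, adjusted p = 8.59e-05).

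Of 36 genes of xenobiotic metabolism, 32 were higher in liver, 2 in SAT and 2 were not called. Cyp2e1, which oxidizes ethanol and small solvents, had 3908 ± 1609.8 against 221 ± 204 CPM, Gstm1, a glutathione transferase, 2709 ± 791 against 135 ± 44.1 CPM, and Ces3a, a carboxylesterase, 1509.9 ± 332 CPM and 2 counts in SAT. The SAT level of Cyp2e1 spread widely between libraries. Cyp1b1, an extrahepatic P450, was the other way round at 3.81 ± 2.43 against 37.8 ± 10.0 CPM. Ces1d, a carboxylesterase and triglyceride hydrolase of both tissues, had 590.0 ± 177 and 454 ± 208 CPM and was not called in sham libraries (adjusted p = 0.348), but was in VAT removed libraries, where its log2 difference was 1.09. Genes of these families have close copies, among which reads may be shared.

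Of 21 metallothionein, iron and heme genes, 16 were higher in liver and 1 in SAT. Ftl1, the ferritin light chain, had 2349.7 ± 182 against 471 ± 80.8 CPM, Cp, ceruloplasmin, which oxidizes iron, 1571 ± 99.2 against 84.4 ± 13.5 CPM, and Slc40a1, the iron exporter ferroportin, 176 ± 41.8 against 13.3 ± 1.84 CPM. Heph, a relative of ceruloplasmin bound to the membrane, was the gene higher in SAT, at 3.8 ± 0.601 against 118 ± 28.3 CPM. Among 23 genes of chaperones and stress of the endoplasmic reticulum, where secreted proteins fold, 20 were higher in liver and 1 in SAT, with P4hb, protein disulfide isomerase, at 1540.4 ± 110.1 against 271 ± 49 CPM.

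Of 40 receptors for metabolic hormones, 15 were higher in liver, 17 in SAT and 8 were not called, beside 29.7% and 35.3% of all genes. Gcgr, the glucagon receptor, was read at 306, 281, 287, 302 and 247 CPM in liver and at 0.575, 0.676, 1.21, 0.452 and 1.29 CPM in SAT. Fgfr4, the receptor for the bile acid signal FGF15, led the FGF receptors of liver (54.2% ± 3.64 of CPM per kb), and Fgfr1, through which FGF21 acts on fat, those of SAT (92.5% ± 2.61). Klb, the co-receptor that both need, had 42.5 ± 12.5 and 38.2 ± 10.8 CPM and was not called (interval -0.39 to 0.69, adjusted p = 0.604). Insr, the insulin receptor, and Adipor2, a receptor for adiponectin, were 1.76-fold and 2.02-fold higher in liver (adjusted p = 0.000202 and 0.00189).

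Receptors of some circulating signals had intervals well within a 2-fold difference. Il6st, the shared signalling chain of the interleukin 6 family, was read at 354, 339.8, 345, 358 and 362 CPM in liver and at 337, 368, 343, 381 and 337 CPM in SAT, a log2 difference of -0.01 with a 95% interval of -0.20 to 0.19. Ghr, the growth hormone receptor, was read at 738, 517, 683, 689 and 424 CPM in liver and at 818, 788, 522, 446 and 774 CPM in SAT (log2 difference -0.13, interval -0.61 to 0.34), and it was called higher in SAT in the VAT removed libraries (-0.48). With total count scaling both were called higher in SAT (-0.59 and -0.71). Over all genes the 95% interval lay wholly within a 2-fold difference for 6939 genes (37.6%), of which 4211 were not called.

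Beyond the receptor, insulin signalling genes were more often higher in SAT, with 18 of 30, against 5 in liver and 7 not called. Their median log2 difference was -0.56, and over all genes 35.3% were higher in SAT and 29.7% in liver. Akt2, the kinase that moves glucose carriers to the surface, had 126 ± 5.13 against 299.9 ± 80.4 CPM (adjusted p = 7.37e-05), and Pik3r1, a regulatory subunit of PI 3-kinase, 202 ± 20.2 against 334 ± 77.2 CPM. Liver hormones included Igf1, at 552 ± 89.8 against 218 ± 56.9 CPM, Selenop, which carries selenium, at 5516 ± 951 against 769 ± 188 CPM, and Agt, the precursor of angiotensin, at 633 ± 82.5 against 3.89 ± 3.07 CPM. Of 23 tested hormones and binding proteins of hepatocytes, 20 were higher in liver, 0 in SAT and 3 were not called.

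Most collagens and other matrix genes of the lists were higher in SAT. Of 30 tested collagens, 20 were higher in SAT, 3 in liver and 7 were not called, and of 36 matrix glycoproteins and remodelling genes 32 were higher in SAT and 2 in liver. Col3a1, a fibrillar collagen, was read at 174, 354, 239, 179 and 451 CPM in liver and at 3426, 2152, 2113, 2247 and 3055 CPM in SAT. Col1a1, the main fibrillar collagen, and Col4a1 and Hspg2, of the basement membrane that surrounds every adipocyte, had log2 differences of -3.19 ± 0.35, -3.84 ± 0.25 and -3.86 ± 0.20. Sparc, a collagen-binding glycoprotein, had 117 ± 29.3 against 3775 ± 1001 CPM. Col18a1, the source of endostatin, and Fn1, plasma fibronectin, which hepatocytes secrete, were higher in liver at 1871 ± 311 against 355 ± 92.5 CPM and 3293 ± 513 against 985 ± 448 CPM.

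Gsn, an actin-severing protein that is also secreted, was the second most abundant gene of SAT among nuclear protein-coding genes, at 7867, 9496, 4041, 3859.9 and 7429 CPM against 45.6, 73.9, 56.5, 41.1 and 54.7 CPM in liver. Ahnak, a large scaffold at the cell membrane, had 152 ± 24.4 against 5245 ± 1252 CPM and Sptbn1, a spectrin, 346 ± 19.5 against 2984 ± 672 CPM. Of 20 markers of adipose progenitors and fibroblasts, 18 were higher in SAT and 1 in liver, with Pi16, of a progenitor of the fat interstitium, at 0.34 ± 0.316 against 224 ± 163 CPM and Dpt, a dermal matrix protein, at 9.85 ± 4.86 against 696 ± 312 CPM. Dpp4, used to sort the same progenitors from fat, was the gene higher in liver (155 ± 20.6 against 48.5 ± 13.3 CPM). The summed progenitor and fibroblast level was lowest in SAT libraries 3 and 4, at 5138 and 5110.3 CPM against 9665 to 11981 CPM.

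Endothelial genes split by vessel type. Of 20 tested genes of continuous and lymphatic endothelium, 18 were higher in SAT and 2 in liver, with Pecam1 at 31.8 ± 6.36 against 188 ± 46.2 CPM and Cdh5, VE-cadherin, at 56.1 ± 9.59 against 264 ± 70.5 CPM. Of 17 sinusoidal genes, 11 were higher in liver and 4 in SAT. Stab2, a scavenger receptor of liver sinusoids that is also made by sinus cells of lymph nodes, was read at 175, 139, 174, 186 and 126 CPM in liver and at 2.3, 1.52, 26.6, 64.3 and 1.76 CPM in SAT. Its log2 difference of 3.05 (adjusted p = 0.0172) became 6.40 without SAT libraries 3 and 4 and 4.40 without library 4 alone, and with total count scaling it was not called (2.33, adjusted p = 0.0512). Of 13 stellate cell genes, 9 were higher in liver, with Reln at 257 ± 46.2 against 9.23 ± 6.21 CPM and Lrat, which stores retinol as esters, at 51.8 ± 11 against 0.576 ± 0.312 CPM.

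Of 22 general macrophage genes, 13 were not called, 8 were higher in SAT, beside 35.3% of all genes, and 1 in liver. In the VAT removed libraries 14 of the 22 were higher in SAT and 4 in liver. Lyz2, lysozyme, had 79.3 ± 28.5 against 293 ± 66.1 CPM and Csf1r, the receptor for macrophage colony-stimulating factor, 113 ± 32.9 against 203 ± 45 CPM. Spp1, osteopontin, was the macrophage list gene higher in liver, at 69.8 ± 27.8 against 1.08 ± 0.408 CPM, and bile duct cells make it too. Of 11 Kupffer cell genes, 4 were higher in liver, 3 in SAT and 4 were not called, near the 29.7% and 35.3% of all genes. Clec4f, a lectin of Kupffer cells, the resident macrophages of liver, was read at 50.6, 43.2, 30.3, 75.6 and 72 CPM in liver and had no count in SAT, which makes it at least 3596-fold higher in liver. Cd5l, another product of Kupffer cells, had 136 ± 58.8 against 4.01 ± 5.99 CPM, with its highest SAT value, 14.4 CPM, in library 4, and its log2 difference of 5.08 became 6.64 without that library.

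Timd4, a receptor for dying cells on long-lived resident macrophages, was among the 3 genes of the Kupffer cell list that were higher in SAT. It was read at 0.903, 0.0694, 0.433, 5.94 and 0.695 CPM in liver and at 6.72, 5.54, 18.1, 46.3 and 4.46 CPM in SAT. The log2 difference of -3.33 ± 1.03 (adjusted p = 0.0141) was not called without SAT libraries 3 and 4 (-1.83, adjusted p = 0.1), and it was -2.40 without SAT library 4 and -4.94 without liver library 4. In the VAT removed libraries Timd4 was not called, with a log2 difference of 1.01.

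Lymphocyte genes depended on SAT libraries 3 and 4. All 21 tested members were higher in SAT over the 5 libraries, whereas without libraries 3 and 4 only 2 were, 2 were higher in liver and 17 were not called. In the VAT removed libraries 6 were higher in liver and 1 in SAT. Cd79a, of the B cell receptor, was read at 1.25, 1.39, 0.953, 0.821 and 1.22 CPM in liver and at 1.02, 1.65, 81.4, 89.2 and 0.377 CPM in SAT, and without those libraries its log2 difference was 0.11 (adjusted p = 0.842). Ighm, the heavy chain of immunoglobulin M, was read at 22.1, 53.3, 27.8, 31.5 and 41.3 CPM in liver and at 791, 1112, 784, 954 and 676 CPM in SAT, high in all 5 SAT libraries (log2 difference -4.62 ± 0.27, adjusted p = 7.07e-08).

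Results for skeletal muscle depended on SAT library 2. Of 13 tested genes, 12 were higher in SAT, and without library 2, 10 were higher in SAT and 1 in liver while the median log2 difference went from -6.00 to -2.95. Ttn, the giant spring of the sarcomere, was read at 3.83, 6.52, 6.28, 4.34 and 6.43 CPM in liver and at 6.85, 1159, 126, 143 and 6.75 CPM in SAT, and Acta1, skeletal actin, reached 507 CPM in SAT library 2 and 6.93 to 41.9 in the others. Their log2 differences went from -5.71 to -3.57 and from -9.09 to -6.30 without that library. Neb, nebulin, a thin filament protein, was read at 95.4, 52.6, 54.7, 82.8 and 73.4 CPM in liver and was not called, but it was called higher in liver without SAT library 2 (1.83, adjusted p = 8.55e-05).

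Other cells were represented unevenly. Mast cell proteases marked SAT, with Tpsb2 at 20.4 ± 5.9 CPM and no count in liver, at least 882-fold higher, and Mcpt4 at 23.2 ± 7.77 CPM and 2 counts in liver. Krt8 and Krt18, keratins of simple epithelia that hepatocytes share, had 431 ± 81.9 and 272 ± 66.4 CPM in liver against 0.0817 ± 0.0593 and 0.126 ± 0.121 CPM. They carried the list of epidermis and mammary epithelium, 7 of whose 8 tested genes were higher in liver, although 7 genes that define skin and mammary epithelium (Krt5, Krt14, Krt1, Krt15, Csn2, Csn3 and Wap) did not pass the filter on low counts. The list summed to 5.19 to 7.97 CPM in SAT. Of 6 erythroid genes, 5 were not called.

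The count of interferon response genes called depended on liver library 5. Of 23 genes, 10 were higher in liver, 0 in SAT and 13 were not called, beside 29.7% and 35.3% of all genes higher in liver and SAT. Without liver library 5 the count higher in liver was 7, near the share of all genes. The median log2 difference was then 0.35 in place of 1.17. With total count scaling 4 were higher in liver, and without SAT libraries 3 and 4 it was 5. Irf7, which amplifies the response, was read at 65, 154, 74.4, 78.9 and 372 CPM in liver and at 31.9, 40.2, 19, 24.4 and 107 CPM in SAT, and its call (log2 difference 1.74 ± 0.60, adjusted p = 0.0248) was lost without liver library 5 (1.08, adjusted p = 0.0802) and without SAT library 1 (0.0578), 3 (0.0536) or 4 (0.0579). Bst2, which tethers virus particles, was higher in every liver than in every SAT library (160.3 ± 85 against 30.8 ± 15.1 CPM, adjusted p = 0.00029).

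Genes of respiration were moderately higher in liver. All 13 mitochondrially encoded genes were called, none over 2-fold, with a median log2 difference of 0.91, and with total count scaling 3 were called and the median was 0.34. mt-Co1, a core subunit of cytochrome c oxidase, was read at 13870.0, 11309, 13413, 15112 and 10476 CPM in liver and at 5784, 8304, 4238, 4152 and 7397 CPM in SAT. Of 34 nuclear genes of oxidative phosphorylation, 29 were higher in liver and 1 in SAT (median 0.86), which became 19 and 2 (median 0.28) with total count scaling. Atp5a1, of ATP synthase, was 2.02-fold higher in liver, while its partner Atp5b, at 1068 ± 73.2 and 781 ± 218 CPM, was not called (adjusted p = 0.0581) and was called without SAT library 2 (0.031).

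The list of beige and brown adipocyte genes was split between the tissues. Of 19 tested genes, 8 were higher in liver and 9 in SAT, beside 29.7% and 35.3% of all genes. The median of 0.71 became -0.44 with no filter on low counts. Ucp1, the uncoupling protein of brown fat, did not pass the filter on low counts. Cox8b, a subunit of brown fat and muscle, was at 0.14 ± 0.0727 CPM in liver and 13.2 ± 8.8 in SAT (adjusted p = 3.16e-06). Its ubiquitous form Cox8a was at 182 ± 16.1 and 184 ± 49.1 CPM and was not called (log2 difference -0.01), although it was called higher in SAT with total count scaling (-0.58) and without SAT libraries 3 and 4 (-0.28, adjusted p = 0.0185).

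Of 21 genes often used as references, 9 were higher in liver, 4 in SAT and 8 were not called, beside 65% of all genes called in either direction, and with total count scaling 5 and 11 were, while the median log2 difference went from 0.15 to -0.43. Gapdh was read at 1234, 1243, 1221, 1436 and 1093 CPM in liver and at 414, 444, 284, 290.3 and 379 CPM in SAT (log2 difference 1.78 ± 0.16, adjusted p = 2.24e-06), and Pgk1, its neighbour in glycolysis, was 3.26-fold higher in liver. Actb, cytoskeletal actin, was 1.69-fold and Tubb5, a tubulin, 2.29-fold higher in SAT. Tbp, the TATA-binding protein, had 18.1 ± 1.3 and 18.6 ± 3.49 CPM (interval -0.33 to 0.25), and Ppia, cyclophilin A, 218 ± 6.95 and 197 ± 21.7 CPM (interval -0.06 to 0.36). Neither was called, and with total count scaling both were called higher in SAT (-0.65 and -0.43).

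Proteasome, cell cycle and clock genes had medians under 1 on the log2 scale. Of 28 proteasome genes, 23 were higher in liver and 5 were not called (median 0.64), which became 7 higher in each tissue (median 0.06) with total count scaling. Of 23 cell cycle genes, 19 were not called and 4 were higher in liver, against 0 in liver and 7 in SAT with total count scaling. Their summed level was 380 and 340 CPM in SAT libraries 3 and 4 against 148 to 202 CPM in the other SAT libraries. In liver it ran from 152 to 448 CPM. Mki67, a marker of dividing cells, had 24 ± 11.2 and 40.5 ± 25.3 CPM and was not called (adjusted p = 0.179), although it was called higher in SAT with total count scaling (-1.37). Of 19 clock genes, 9 were higher in liver, 2 in SAT and 8 were not called, beside 29.7% and 35.3% of all genes.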

How the data were processed

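Reads of 20 RNA libraries in 4 groups of 5 were demultiplexed with bcl2fastq, aligned to GRCm38 with STAR 2.5.1a and counted with Subread featureCounts 1.46, per the submitters' processing notes. Which annotation and strand setting were used, and how multi-mapping reads were treated, is not stated there, so close copies and overlapping genes may share reads. Values are raw gene-level counts as deposited by the authors. Of the table's 40757 entries, 317 exact repeats (102 with any count) were dropped, and 117 symbols shared by 235 entries were kept apart. GENCODE M21 gave positions and exon lengths for 40298 of 40322 symbols, and RefSeq gave promoters.

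Groups came from the sample titles. The 10 sham libraries were fitted in edgeR 4.0.16 (R 4.3.3) with filterByExpr by group, TMM scaling and the quasi-likelihood F-test (robust) for liver against SAT, with Benjamini-Hochberg adjustment over all 18449 genes and a threshold of 0.05. A second test (glmTreat) was against a log2 difference of 1. The VAT removed libraries were fitted alone in the same way, and the effect of surgery on the tissue difference in 1 fit of all libraries. Errors are SDs of TMM-scaled CPM over 5 libraries, or SEs of log2 differences from the F statistic. Ratios are of group mean CPM, with exact 95% counting intervals where a group had 1 to 3 counts, and a group with none was set to 3 counts over the group. Intervals and floors cover counting error only. Single values per library were compared by an exact two-sided permutation over 252 assignments. On simulated counts of 18449 genes with 50 changed per fold, a fit of the same design recovered 12%, 64%, 98% and 94% of genes changed 1.5-fold, 2-fold, 4-fold and 8-fold, with 11 false calls. The changed genes were balanced in direction and had a mean over 1 CPM. In the data 65% of genes were called, so these rates do not carry over to the sham comparison.

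The members, the 52 gene lists, the 44 isozyme sets and the motifs were chosen with earlier results of these data known, and lists are described by counts and medians with no test. Named genes were the 12 with the largest ratio each way among those past the 2-fold test with at least 50 CPM in the higher tissue, without clone-style names, the 12 most abundant protein-coding nuclear genes of each tissue, members of the isozyme sets, up to 5 called members per list and direction with the highest mean CPM, uncalled examples with the highest mean CPM, and Alb and Adipoq. Hp, Orm1, Trf, C4bp, F13b, G6pc, Tbp and Ppia were chosen after their values were seen. Alternatives were DESeq2 1.42.0, limma-voom (limma 3.58.1), RLE, upper quartile and total count scaling, scaling without mitochondrial and abundant genes, no filter and a stricter one, no robust estimation, all libraries in 1 fit, a block for library number, and fits without each library in turn and without SAT libraries 3 and 4. Some genes are not reported here.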

Additional observations from a re-analysis of the deposited data

Results flagged for a closer look

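In groups of 5 libraries, a highest or lowest library was taken to stand apart when its gap to the nearest of the others was over 0.71 of the group's range. Of 501 values checked, 23 stood apart (4.59%), and chance gives about 1 in 20.

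Muscle genes stood apart in SAT library 2. Acta1 was read there at 507 CPM against 6.93 to 41.9 CPM in the other SAT libraries, Ttn at 1159 CPM against 6.75 to 143 CPM and Neb at 236 CPM against 12.4 to 25.1 CPM, and the summed muscle level was 4014 CPM. The part of skeletal muscle in the other results of this library was not tested.

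Interferon genes stood apart in library 5 of both tissues. Their summed level was 3198 CPM in liver library 5 and 1050.5 CPM in SAT library 5. Irf7 stood at 107 CPM in SAT library 5, and Stat2, a transducer of the interferon signal, at 193 CPM in liver library 5 against 115 to 135 CPM in the other livers.

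Liver library 5 was lowest for Hrg at 562 CPM, Acsl1 at 769 CPM, Slc2a2 at 309.9 CPM and the summed xenobiotic metabolism genes at 17643 CPM. Liver library 1 was lowest for Pgd at 84.5 CPM, Aldoa at 123 CPM and the summed metallothionein, iron and heme genes at 12203 CPM, and highest for G0s2 at 226 CPM and Fgfr4 at 93.3 CPM. Liver library 4 was highest for Cd55, a brake on complement, at 25.8 CPM and for Timd4 at 5.94 CPM. Plin2 was lowest in liver library 2 at 596 CPM.

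In SAT library 1, Hp stood at 2721 CPM and the summed plasma protein genes at 3084 CPM. In SAT library 4, Cd5l stood at 14.4 CPM.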

How the results depend on the processing

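With total count scaling, 3189 genes were higher in liver and 10763 in SAT, 5045 of SAT over 2-fold. Under the other alternatives, genes higher in liver or SAT, with or without the 2-fold test, stayed within 1.5 times the counts reported. Leaving out 1 library gave 5239 to 5678 genes higher in liver and 6055 to 6521 in SAT, and 2411 to 2656 and 3053 to 3383 over 2-fold. DESeq2 gave 6311 and 7318 of 25471 genes, and limma-voom 5545 and 6121. A reversed sign was counted for a named gene only if the gene was called in the main or the alternative fit. For a list median, the move had to reach the larger SD within a tissue of the list's mean log2 CPM. Other signs near 0 may have changed. By this rule signs reversed with total count scaling for Slc25a1 (-0.46), Acadl (-0.51) and Ppia (-0.43). So did the medians of the lists lipid droplet coat (-0.059), branched-chain amino acid catabolism (-0.10) and common reference genes (-0.43). Signs also reversed without SAT libraries 3 and 4 for Cd79a (0.11), and with no filter on low counts for the median of the list beige and brown adipocyte (-0.44). The cause was not tested. limma-voom did not call Cd79a (adjusted p = 0.356), Ttn (0.108) or Acta1 (0.0929).

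Numbers shared by liver and SAT libraries did not pair them: deviations of same-numbered libraries correlated at -0.18 to 0.102. With the number as a replicate block, 5192 genes were higher in liver and 5793 in SAT. Depth limits genes with few counts in 1 tissue, whose fitted differences moved with single libraries.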
